A study of Homo sapiens with 24 samples.

Results

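The comparison of the mouse with the chimpanzee ortholog of HAR123 in neuroectoderm rests on 6 RNA-seq libraries, 3 labelled mHAR123 and 3 labelled cHAR123, of the 24 libraries in the series. They were chosen by the column labels of the count table and are described over all genes. All cells were H9, an established human embryonic stem cell (hESC) line that is widely used for neural differentiation. In mHAR123 and cHAR123 cells the human element (hHAR123) had been replaced by CRISPR-Cas9 with the mouse or the chimpanzee sequence, in HAR123-KO cells it had been deleted, and hHAR123 denotes unedited cells. The neuroectoderm libraries (ECTO in the labels) came from confluent cells kept for 5 days in serum replacement medium with Noggin at 500 ng/ml and SB431542 at 10 µM, inhibitors of BMP and of TGF-β/activin signalling, and the ESC libraries came from undifferentiated cells. Cells of 2 independent clones per genotype were sequenced as 3 libraries per stage, so at least 2 of the 3 libraries of a group share a clone, and the labels do not give the clone behind each library. A clone effect and an effect of the ortholog therefore cannot be told apart, and p-values measure the spread between these libraries, which may be partly technical.

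Every direction below is that of the column labels. In the supplementary lists of the study, the neuroectoderm sheets carry the mHAR123 and cHAR123 names the other way round from the columns, whereas the ESC sheets match the columns. If the neuroectoderm columns, rather than those sheets, were exchanged, each neuroectoderm direction below would turn around, the ESC directions would not, and the comparisons of the stages would take other values. Whether the labels of the 2 stages match each other bears on this, although a match could not show an exchange made in both stages. H4C13, LINC01515, LINC01090 and TCEAL5 were nearly absent from the neuroectoderm libraries labelled cHAR123, and their ESC levels were also lowest in the libraries labelled cHAR123. In ESCs, H4C13 averaged 1.74 ± 0.425 CPM in libraries labelled cHAR123 against 70.4 ± 1.53 CPM in those labelled mHAR123. CPM is the usual scaling of counts by library size, here by library totals without TMM factors, as mean ± SD, n = 3.

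Human accelerated regions are short sequences conserved through mammals that changed quickly on the human lineage, and many of them act as enhancers. HAR123 lies within an intron of SMG6, which encodes the endonuclease of nonsense-mediated mRNA decay, on the short arm of chromosome 17. Neuroectoderm is the sheet of PAX6- and SOX2-expressing cells that forms when BMP and activin signals are blocked. Its borders give rise to neural crest and roof plate, its anterior part to forebrain and eye field, and proneural factors such as NEUROG1 later start neuron formation within it.

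The libraries held between 22303658 and 25978892 counts assigned to genes. The markers fitted the neuroectoderm label. PAX6 averaged 409 ± 0.652 CPM in mHAR123 and 492 ± 5.49 CPM in cHAR123 neuroectoderm, against 0.229 ± 0.0231 and 0.336 ± 0.166 CPM in the ESC libraries of the same genotypes. SOX1, OTX2, HES5 and SOX2 were present in every neuroectoderm library, and LHX2, a forebrain marker, was low at 1.51 ± 0.160 and 1.08 ± 0.246 CPM. POU5F1, the pluripotency factor OCT4, remained at 14.3 ± 1.47 and 14.1 ± 1.65 CPM, and NANOG stood at 0.816 ± 0.245 and 0.747 ± 0.159 CPM. SOX17, which marks endoderm, and PTPRC, which marks blood, had no count in these 6 libraries, and TBXT and CDH5 did not exceed 0.346 CPM in any of them.

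Across 21108 genes tested, 55 were differentially expressed genes (DEGs), that is 0.261%. A DEG had to pass an adjusted p of 0.01 and to differ more than 2-fold, that is by over 1 on the log2 scale. Of these, 22 were up-regulated in mHAR123 relative to cHAR123 (0.104% of genes) and 33 were down-regulated (0.156%). Adjusted p-values are from the quasi-likelihood test of edgeR, adjusted by Benjamini-Hochberg over all genes tested, unless DESeq2 is named. The error after a log2 fold change is the size of that change divided by the square root of the F statistic of the test. For some genes, H4C13, LINC01090 and TCEAL5 among them, this error was well below the SE of DESeq2, given with these. Without the fold threshold 886 genes (4.2%) passed, 557 up-regulated and 329 down-regulated, with a median absolute log2 fold change of 0.23. Leaving out cHAR123 replicate 2 lowered this number to 582, and leaving out mHAR123 replicate 1 raised it to 1028. At an unadjusted p of 0.05, 19.1% of genes passed (10.7% up-regulated and 8.46% down-regulated). The 3 mHAR123 and 3 cHAR123 values did not overlap in any of the 55 DEGs, as they did not in 23.6% of all genes tested. DESeq2 called 15 DEGs, all among the 55, and gave the other 40 no adjusted p because its filter on low mean counts removed them. A mean of at least 1 CPM over the 6 libraries was reached by 27 of the 55. The Euclidean distance between libraries, over log2 CPM of 22297 genes, averaged 50.3 within cHAR123, 51.1 within mHAR123 and 56.9 between them.

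**Figure D1:**
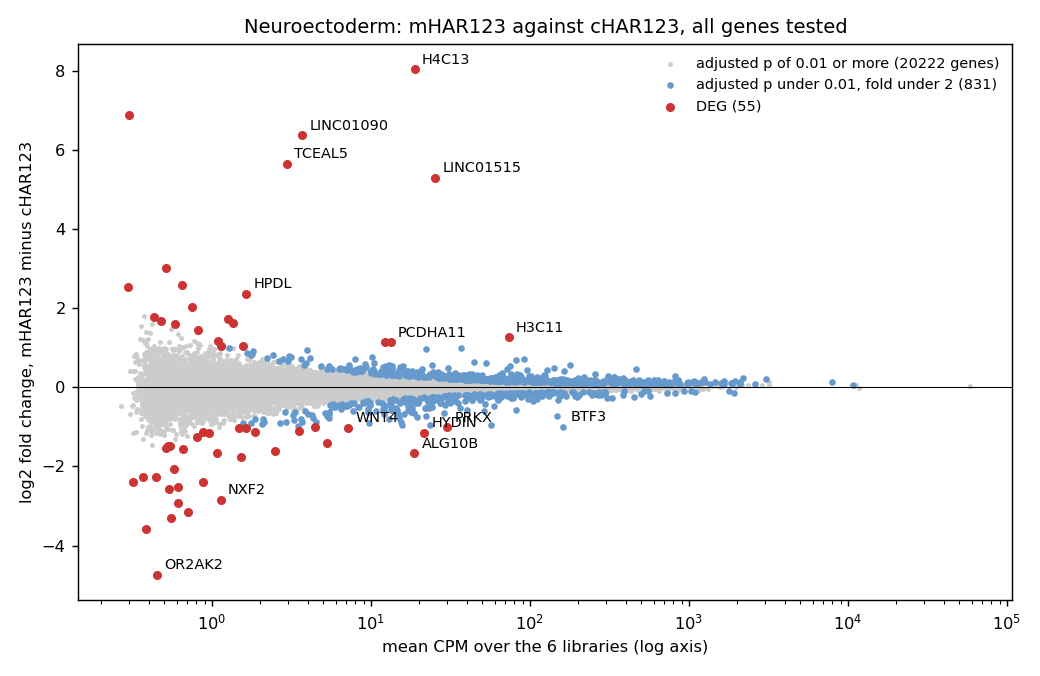
Log2 fold change of mHAR123 minus cHAR123 in neuroectoderm against the mean CPM over the 6 libraries (log axis), one point per gene tested. The 55 DEGs are red, and the 831 genes that passed the test with a smaller fold are blue. H4C13, LINC01090, TCEAL5 and LINC01515 stand above the rest of the expressed genes. The unlabelled point near a log2 fold change of 7 is ZNF385D-AS1, which had no counts in cHAR123.

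The largest differences were in genes that were nearly absent from the cHAR123 libraries. H4C13 encodes a replication-dependent histone H4 and lies in the histone cluster of chromosome 6 (chr6:27873148-27873534, minus strand, GRCh38). It measured 37.3, 38.8 and 37.0 CPM in mHAR123 replicates 1 to 3 and 0.0800, 0.127 and 0.224 CPM in cHAR123 replicates 1 to 3. The counts behind these were 969, 936 and 855 against 2, 3 and 5. The log2 fold change was 8.03 ± 0.15 (adjusted p = 3.1e-39, DESeq2 SE 0.46). The hHAR123 libraries averaged 33.3 ± 2.30 CPM and the HAR123-KO libraries 51.4 ± 0.489 CPM, and no library of these genotypes overlapped those of cHAR123. Its neighbour H3C11, a histone H3 gene on the same strand, measured 102, 104 and 104 CPM against 43.6, 43.6 and 44.4 CPM, a log2 fold change of 1.26 ± 0.038 (adjusted p = 3.3e-30). These were 2 of the 46 histone genes of chromosome 6 that were tested, of which 7 passed the test, all up-regulated. Histone genes resemble each other closely, so reads of H4C13 may be split with its copies. The other histone H4 genes of this chromosome had log2 fold changes no larger than 0.17.

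The promoter of H4C13 is shown because this gene carried the largest difference. The sequences here are RefSeq promoters of GRCh38.p14, 250 bases before to 50 bases after the start, printed 5′ to 3′ on the gene's strand in lower case. Capitals mark 3 motifs searched on both strands, the TATA box TATAAA, the CCAAT box CCAAT and ACGTG, the core of hypoxia response elements. ACGTG also lies within the palindrome CACGTG, which then counts as 2 copies. Of 35116 promoters of this length, 11.5% held TATAAA, 34.6% CCAAT and 21.4% ACGTG. The H4C13 promoter (chr6:27873485-27873784, minus strand) holds 1 copy of TATAAA and 1 of CCAAT.
H4C13: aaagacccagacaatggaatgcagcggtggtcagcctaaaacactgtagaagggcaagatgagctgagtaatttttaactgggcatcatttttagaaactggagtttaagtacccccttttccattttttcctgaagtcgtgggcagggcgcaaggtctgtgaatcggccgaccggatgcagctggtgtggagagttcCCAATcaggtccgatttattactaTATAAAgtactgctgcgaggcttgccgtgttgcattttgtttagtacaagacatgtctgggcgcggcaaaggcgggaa

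TCEAL5, an X-linked member of the family of transcription elongation factor A-like genes (chrX:103273691-103276750), measured 6.39, 5.59 and 5.49 CPM in mHAR123 and 0.120, 0.127 and 0.0897 CPM in cHAR123. Its log2 fold change was 5.65 ± 0.27 (adjusted p = 5.4e-22, DESeq2 SE 0.54). Its level was 0.974 ± 0.279 CPM in hHAR123 and 0.238 ± 0.0664 CPM in HAR123-KO. The log2 fold change to hHAR123 was 2.61 ± 0.18 for mHAR123 and -3.04 ± 0.45 for cHAR123. Its promoter (chrX:103276701-103277000, minus strand) holds 3 copies of ACGTG and neither of the other motifs, and is shown as the contrast to H4C13 among the genes nearly absent from cHAR123.
TCEAL5: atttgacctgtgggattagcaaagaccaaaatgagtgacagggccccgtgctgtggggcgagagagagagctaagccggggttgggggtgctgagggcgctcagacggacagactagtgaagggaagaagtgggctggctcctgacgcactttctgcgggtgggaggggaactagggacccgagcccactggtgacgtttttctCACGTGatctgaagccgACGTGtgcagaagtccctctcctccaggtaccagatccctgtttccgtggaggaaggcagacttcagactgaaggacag

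The long noncoding RNA LINC01515 on chromosome 10 measured 53.4, 47.5 and 48.2 CPM against 1.001, 1.39 and 1.48 CPM (log2 fold change 5.30 ± 0.10, adjusted p = 3.1e-39). The exons of LINC01090 on chromosome 2 overlap an antisense gene. LINC01090 measured 7.54, 6.38 and 7.96 CPM against 0.160, 0.0845 and 0 CPM (log2 fold change 6.37 ± 0.28, adjusted p = 3.9e-23, DESeq2 SE 0.61). For both, mHAR123 stood near the hHAR123 means of 52.5 ± 4.58 and 5.69 ± 0.329 CPM and the cHAR123 libraries stood far below. ZNF385D-AS1, an antisense RNA on chromosome 3, had 13, 19 and 12 counts in mHAR123 and none in cHAR123, at least 14.2-fold higher if 3 counts are taken as the floor over the cHAR123 libraries (adjusted p = 8.9e-07). The exact 95% counting interval of the ratio begins lower, at 11.1-fold. Intervals on counts here cover counting error only.

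**Figure D2:**
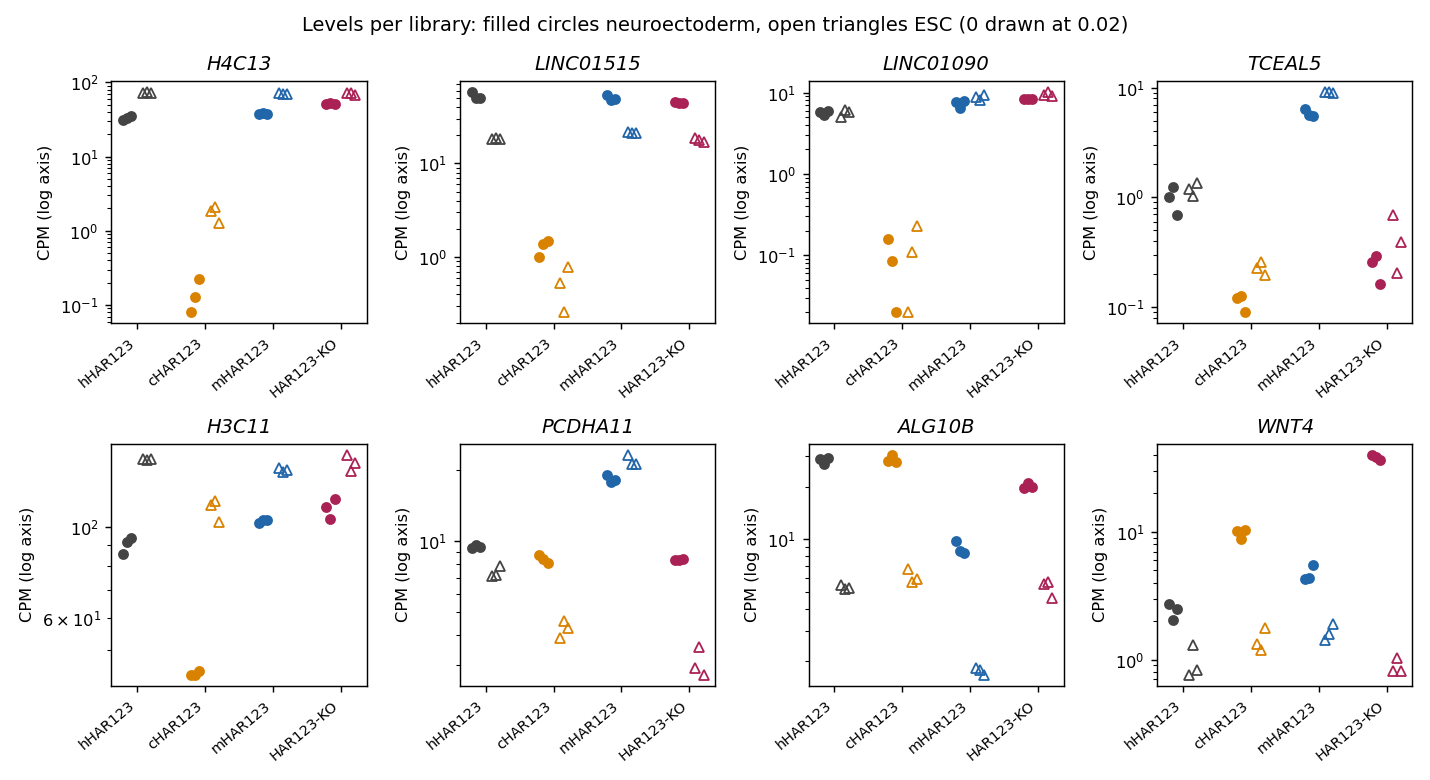
CPM of 8 DEGs in every library of the 4 genotypes, on log axes, with neuroectoderm as filled circles and ESC as open triangles. A value of 0 is drawn at 0.02. H4C13, LINC01515 and LINC01090 are lowest in cHAR123 in both stages, below every library of the other genotypes, whereas PCDHA11 is highest and ALG10B lowest in mHAR123.

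Other up-regulated DEGs were expressed in both genotypes. HPDL, which encodes an enzyme of the coenzyme Q pathway, measured 2.96, 2.40 and 2.86 CPM in mHAR123 and 0.240, 0.634 and 0.762 CPM in cHAR123 (log2 fold change 2.37 ± 0.26, adjusted p = 1.6e-09). SLC39A4, an intestinal zinc importer, measured 1.92, 1.86 and 1.99 CPM against 0.480, 0.676 and 0.628 CPM (log2 fold change 1.72 ± 0.26, adjusted p = 3.0e-06). Its exons overlap an antisense gene, and whether reads were counted by strand is not given in the sources used here. PCDHA11, a clustered protocadherin of neuronal cell surfaces, measured 18.9, 17.7 and 18.1 CPM against 8.76, 8.37 and 8.07 CPM (log2 fold change 1.14 ± 0.079, adjusted p = 7.6e-16). The mHAR123 level of PCDHA11 stood above the hHAR123 mean of 9.48 ± 0.153 CPM. PCDHA genes share their last exons, so counts within the cluster are uncertain. The noncoding LINC02301 measured 17.2, 17.3 and 15.7 CPM against 7.16, 8.70 and 7.13 CPM (log2 fold change 1.15 ± 0.086, adjusted p = 1.1e-14). The unnamed X-linked gene ENSG00000288595, which overlaps an antisense gene, had a log2 fold change of 1.62 ± 0.25. SMIM24 (1.18 ± 0.27) and IP6K3 (1.05 ± 0.23), an inositol hexakisphosphate kinase, were also up-regulated, but missed the threshold without certain single libraries, SMIM24 without cHAR123 replicate 2 or 3 or mHAR123 replicate 2 (adjusted p up to 0.024) and IP6K3 without cHAR123 replicate 2 or 3 or mHAR123 replicate 1 (up to 0.02).

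Among the down-regulated DEGs, ALG10B, a glucosyltransferase of N-glycan assembly on chromosome 12, measured 9.78, 8.57 and 8.31 CPM in mHAR123 and 28.1, 30.5 and 27.7 CPM in cHAR123. Its log2 fold change was -1.67 ± 0.073 (adjusted p = 2.7e-23), and the cHAR123 level was close to the hHAR123 mean of 28.3 ± 1.07 CPM. HYDIN, a component of motile cilia, measured 12.7, 13.29 and 14.0 CPM against 29.0, 29.96 and 31.0 CPM (log2 fold change -1.15 ± 0.065, adjusted p = 4.8e-19), with 26.4 ± 1.02 CPM in hHAR123. ALG10B and HYDIN have near-identical copies in the human genome, so their levels are uncertain. CCDC169, whose exons are shared with a read-through gene, had a log2 fold change of -1.62 ± 0.20 (adjusted p = 6.7e-08). AGBL4, a deglutamylase of tubulin, measured 3.23, 2.65 and 2.77 CPM against 8.88, 6.72 and 7.62 CPM (log2 fold change -1.40 ± 0.13, adjusted p = 1.4e-11). Here the hHAR123 mean of 2.85 ± 0.593 CPM was close to mHAR123, so cHAR123 was the higher genotype. FOXE3, a lens transcription factor, measured 0.423, 0.455 and 0.649 CPM against 1.64, 1.31 and 1.97 CPM (log2 fold change -1.66 ± 0.29, adjusted p = 4.2e-05). The list also held GPRIN3 (-1.10 ± 0.15), SAMD5 (-1.12 ± 0.20), the zinc finger gene ZNF283 (-1.03 ± 0.23) and the unnamed ENSG00000284727 (-1.03 ± 0.22). ZNF283 missed the threshold without cHAR123 replicate 1 or 3 or mHAR123 replicate 3, with adjusted p up to 0.027. In fits without single libraries, the log2 fold changes of GPRIN3 and ENSG00000284727 came to -0.999 and -0.956 at their smallest, short of the fold threshold.

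Of the 55 DEGs, 14 lay within 500 kb of another, in 3 blocks. On chromosome 1 between 247639630 and 248063407, 9 of 10 genes tested were DEGs, and 8 of them, OR2AK2, 6 OR2L olfactory receptor genes or pseudogenes and 1 unnamed gene, were down-regulated. These genes were chosen for their position after their values were seen. Each was low in mHAR123. OR2L2 had 5, 6 and 9 counts in mHAR123 against 40, 35 and 31 in cHAR123, and OR2L8 had 3, 4 and 3 against 25, 30 and 22. OR2AK2 had 0, 0 and 2 counts against 19, 19 and 24, which puts cHAR123 32.0-fold above mHAR123 with an exact 95% counting interval of 8.49 to 270.1. Between these, hHAR123 averaged 0.221 ± 0.0586 CPM, against 0.880 ± 0.171 CPM in cHAR123. The OR2L genes are close copies of one another, so their reads cannot be assigned with confidence. On the X chromosome between 102215271 and 102471842, the testis-associated genes TCP11X1, NXF2 and TCP11X2 were all down-regulated. TCP11X1 measured 0.770, 0.414 and 0.865 CPM against 2.32, 2.41 and 2.38 CPM (log2 fold change -1.76 ± 0.24, adjusted p = 5.7e-07), and NXF2 0.462, 0.207 and 0.130 CPM against 1.88, 2.45 and 1.70 CPM (log2 fold change -2.84 ± 0.32, adjusted p = 5.5e-09). These too have near-identical copies. The third block was the H3C11 and H4C13 pair.

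At the edge of the fold threshold, PRKX, an X-linked protein kinase with 20.1, 19.2 and 20.6 CPM in mHAR123 and 40.5, 41.0 and 40.4 CPM in cHAR123, and the up-regulated CD300A (1.03 ± 0.27) lay just inside. In the fits without single libraries, the adjusted p of CD300A reached 0.067 and its log2 fold change fell to 0.92. The log2 fold change of PRKX ranged from -1.03 to -0.97 in those fits. BTF3, a subunit of the nascent polypeptide-associated complex, and the noncoding RN7SL471P (log2 fold change 0.995) lay just outside. BTF3 measured 109, 106.4 and 107 CPM in mHAR123 against 214, 221 and 217 CPM in cHAR123, a log2 fold change of -0.99 ± 0.029 (adjusted p = 2.3e-30), with 239 ± 4.00 CPM in hHAR123. The groups of BTF3 were far apart beside their spread, and the fold alone kept it from being a DEG. The log2 fold change of BTF3 to hHAR123 was -1.11 ± 0.035 for mHAR123 and -0.12 ± 0.030 for cHAR123. In single cells of a later stage, the study listed BTF3 among genes higher with hHAR123 than with cHAR123.

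The gene lists below group known markers and pathways. Each count is of members that passed the adjusted p of 0.01 at any fold, to be read against 4.2% of all genes (2.64% up-regulated and 1.56% down-regulated) and a median log2 fold change of -0.0025 over all genes. Members named beyond the DEGs were chosen after their values were seen. In bulk RNA, fewer cells of a type and less RNA per cell cannot be told apart.

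**Figure D3:**
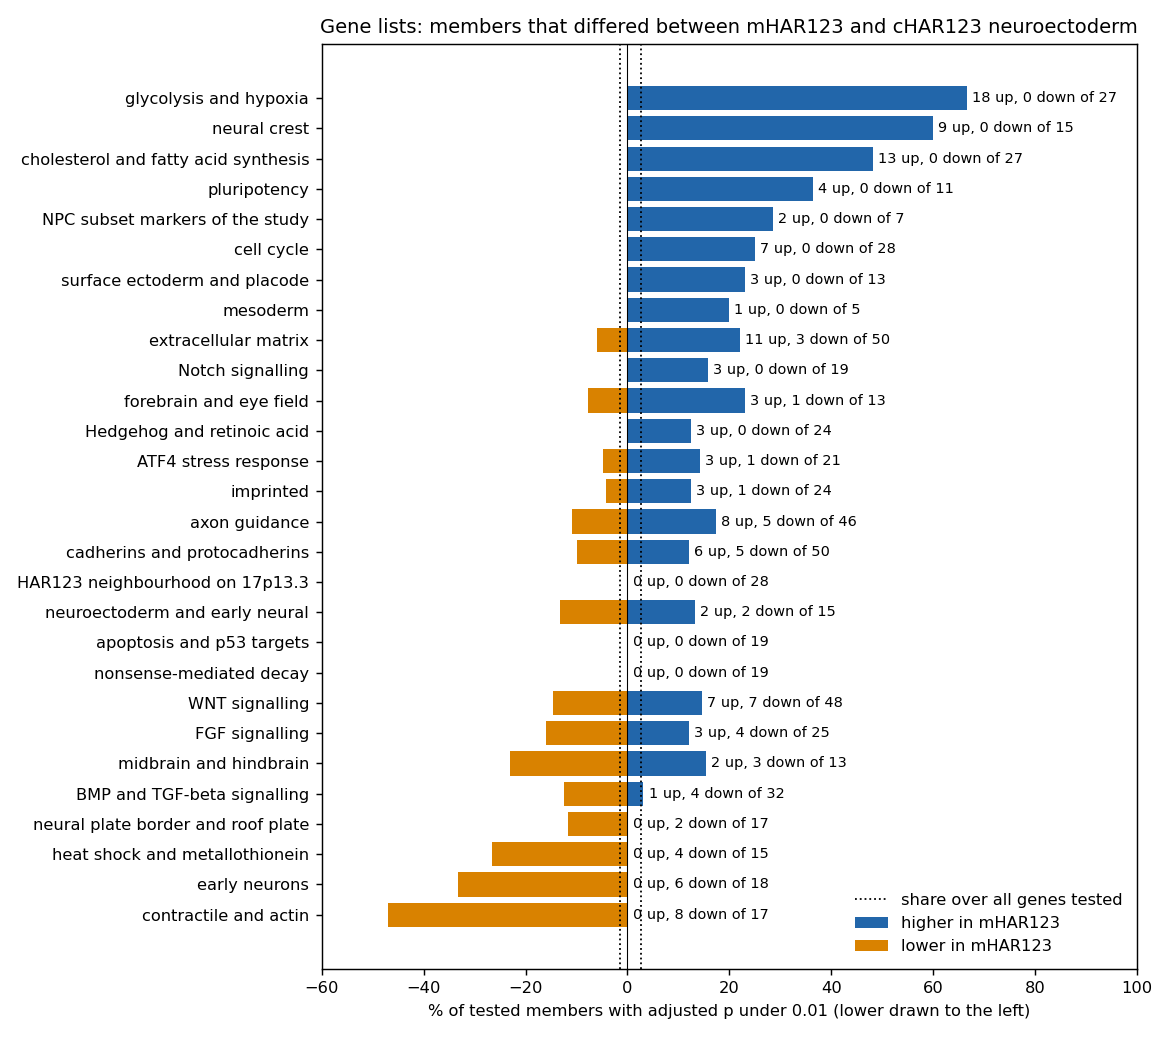
Percentage of the tested members of each gene list (at least 5 tested) that passed an adjusted p of 0.01, with up-regulated members drawn to the right and down-regulated members to the left. Dotted lines give the share over all genes tested. Glycolysis and hypoxia (18 of 27), neural crest (9 of 15) and cholesterol and fatty acid synthesis (13 of 27) reach farthest to the right, contractile genes (8 of 17) and early neurons (6 of 18) farthest to the left.

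Neural crest genes were up-regulated in mHAR123. Of 15 tested, 9 rose and none fell, with a median log2 fold change of 0.34. At an unadjusted p of 0.05, 11 were higher and 3 lower, and DESeq2 called 7 higher and 0 lower. Without mHAR123 replicate 1, 1 member passed as lower. The summed level of the list ran from 983.6 to 1004 CPM over the mHAR123 libraries and from 912.8 to 929.4 CPM over the cHAR123 libraries. SOX10, which specifies crest cells and their glial fate, measured 54.5, 54.7 and 53.4 CPM in mHAR123 and 34.8, 33.8 and 37.5 CPM in cHAR123 (log2 fold change 0.64 ± 0.047, adjusted p = 6.9e-15). SNAI2, which drives crest cells out of the epithelium, measured 9.20, 11.01 and 9.30 CPM against 6.28, 5.92 and 6.05 CPM (log2 fold change 0.72 ± 0.10, adjusted p = 9.4e-07). FOXD3, an early specifier of the crest, measured 15.2, 21.7 and 19.9 CPM against 12.8, 13.9 and 12.6 CPM (log2 fold change 0.55 ± 0.086, adjusted p = 8.3e-06). In all 3 genes the groups did not overlap, but FOXD3, whose exons overlap the antisense FOXD3-AS1, varied more within mHAR123 than the others and missed the threshold with DESeq2 (adjusted p = 0.017). ETS1 (0.57 ± 0.062), TFAP2B (0.49 ± 0.054), MYCN (0.45 ± 0.066), TFAP2A (0.38 ± 0.10), the neurotrophin receptor NGFR (0.34 ± 0.037) and the neuregulin receptor ERBB3 (0.34 ± 0.055) also rose. TFAP2A was the only one of the 9 whose groups overlapped, and it too missed the threshold with DESeq2 (adjusted p = 0.043), and without cHAR123 replicate 2 or 3 or mHAR123 replicate 2 or 3 (up to 0.10). Leaving out single libraries left 8 or 9 of the 15. PAX7, which marks crest precursors, had a log2 fold change of -0.29 ± 0.084 (adjusted p = 0.024).

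The mean levels of these 9 genes stood in the same order over the genotypes, lowest in hHAR123, then cHAR123, then mHAR123 and highest in HAR123-KO. SOX10 averaged 11.9 ± 0.326 CPM in hHAR123, 35.4 ± 1.93 in cHAR123, 54.2 ± 0.696 in mHAR123 and 327 ± 3.59 in HAR123-KO. FOXD3 averaged 2.496 ± 0.202, 13.1 ± 0.699, 18.9 ± 3.34 and 188 ± 0.340 CPM in that order. The log2 fold change of FOXD3 to hHAR123 was 2.95 ± 0.13 for mHAR123 and 2.40 ± 0.11 for cHAR123, and these share the hHAR123 libraries. Knockout against hHAR123, which uses none of the mHAR123 or cHAR123 libraries, gave 6.27 ± 0.064, and all 9 crest genes that passed were also higher in the knockout, in a comparison where 44.1% of all genes passed. The FOXD3 promoter (chr1:63322317-63322616, plus strand), shown for the crest list, holds the palindrome CACGTG, counted as 2 copies of ACGTG.
FOXD3: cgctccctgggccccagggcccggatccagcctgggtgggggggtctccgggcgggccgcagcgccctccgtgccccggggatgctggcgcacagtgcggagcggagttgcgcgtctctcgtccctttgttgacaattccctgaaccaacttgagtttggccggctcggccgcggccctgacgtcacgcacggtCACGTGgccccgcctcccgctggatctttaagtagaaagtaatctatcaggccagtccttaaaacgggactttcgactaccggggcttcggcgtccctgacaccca

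Of 17 border and roof plate genes 2 fell, ZIC1 and GDF7, and 15 did not pass, with a median log2 fold change of -0.045. ZIC1, a factor of the neural plate border, measured 21.02, 22.9 and 23.1 CPM in mHAR123 against 37.3, 34.0 and 35.4 CPM in cHAR123 (log2 fold change -0.65 ± 0.057, adjusted p = 3.6e-12). GDF7, a roof plate ligand, fell by 0.40 ± 0.077 on the log2 scale (adjusted p = 2.1e-04). Of 13 midbrain and hindbrain genes tested, 2 rose and 3 fell. WNT1, made by the midbrain and the dorsal midline, measured 13.5, 13.5 and 13.9 CPM against 21.2, 21.1 and 19.6 CPM (log2 fold change -0.58 ± 0.069, adjusted p = 2.1e-08). IRX3 (-0.48 ± 0.079) and IRX1 (-0.17 ± 0.041) fell with it, while FGF8, the organiser signal of the midbrain-hindbrain boundary, rose from 1.78 ± 0.335 to 3.09 ± 0.376 CPM (log2 fold change 0.82 ± 0.18, adjusted p = 0.0014), as did PAX2 (0.31 ± 0.077). FGF8 missed the threshold with DESeq2 (adjusted p = 0.013), and without cHAR123 replicate 2 or mHAR123 replicate 2 (up to 0.030). PAX2 missed it with DESeq2 (adjusted p = 0.03) and without any single library except mHAR123 replicate 2 (up to 0.041). In the knockout, ZIC1 and WNT1 were higher than in hHAR123, by 2.36 ± 0.051 and 4.25 ± 0.057 on the log2 scale, a sign opposite to that between the orthologs.

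Of 13 forebrain and eye field genes, 3 rose and 1 fell. FEZF1, a forebrain repressor, measured 84.8, 87.9 and 90.5 CPM against 61.2, 62.8 and 60.3 CPM (log2 fold change 0.54 ± 0.038, adjusted p = 1.8e-15), and the mHAR123 level was close to the hHAR123 mean of 89.0 ± 1.38 CPM. The WNT receptor gene FZD5 rose by 0.30 ± 0.046, and the neural stem cell factor NR2E1 had -0.34 ± 0.068. Among 15 general neuroectoderm genes, PAX6 fell by 0.24 ± 0.023 and CDH2, which encodes N-cadherin, by 0.21 ± 0.022, while SOX2 (0.12 ± 0.023) and ZNF521 (0.12 ± 0.023) rose. PAX6 measured 409, 409 and 410.1 CPM against 494, 497 and 486 CPM, a small difference with little spread (adjusted p = 2.5e-11). Of the 7 markers of progenitor subsets that the study itself used, 2 rose, FZD5 among them, and none fell (4 and 2 at an unadjusted p of 0.05, and 1 and 0 with DESeq2).

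Early neuronal genes were down-regulated, 6 of 18 with none up-regulated (9 and 0 at an unadjusted p of 0.05, and 4 and 0 with DESeq2) and a median log2 fold change of -0.23. The list summed to between 288.0 and 301.8 CPM in mHAR123 and between 335.2 and 348.6 CPM in cHAR123. NEUROG1 measured 1.58, 1.66 and 1.21 CPM against 3.20, 2.66 and 2.47 CPM (log2 fold change -0.88 ± 0.19, adjusted p = 0.0014). NEUROG1 missed the threshold with DESeq2 (adjusted p = 0.012), and without cHAR123 replicate 1 or mHAR123 replicate 3 (up to 0.029). DCX, a microtubule protein of migrating neurons, measured 29.9, 32.0 and 28.6 CPM against 43.2, 39.4 and 37.6 CPM (log2 fold change -0.39 ± 0.054, adjusted p = 7.9e-07). ELAVL3 (-0.40 ± 0.073), NHLH1 (-0.34 ± 0.064) and the neurofilament gene INA (-0.31 ± 0.047) fell as well. In 5 of the 6 genes that passed the knockout had the opposite sign against hHAR123. The NEUROG1 promoter (chr5:135535915-135536214, minus strand) is shown as the down-regulated counterpart of FOXD3. It holds 1 CCAAT box, on the opposite strand, and no ACGTG.
NEUROG1: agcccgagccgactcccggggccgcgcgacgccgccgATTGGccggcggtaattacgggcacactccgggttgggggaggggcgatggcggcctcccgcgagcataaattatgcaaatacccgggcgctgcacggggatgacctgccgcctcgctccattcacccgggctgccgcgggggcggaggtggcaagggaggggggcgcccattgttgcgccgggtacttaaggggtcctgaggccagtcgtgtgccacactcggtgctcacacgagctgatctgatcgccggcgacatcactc

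**Figure D4:**
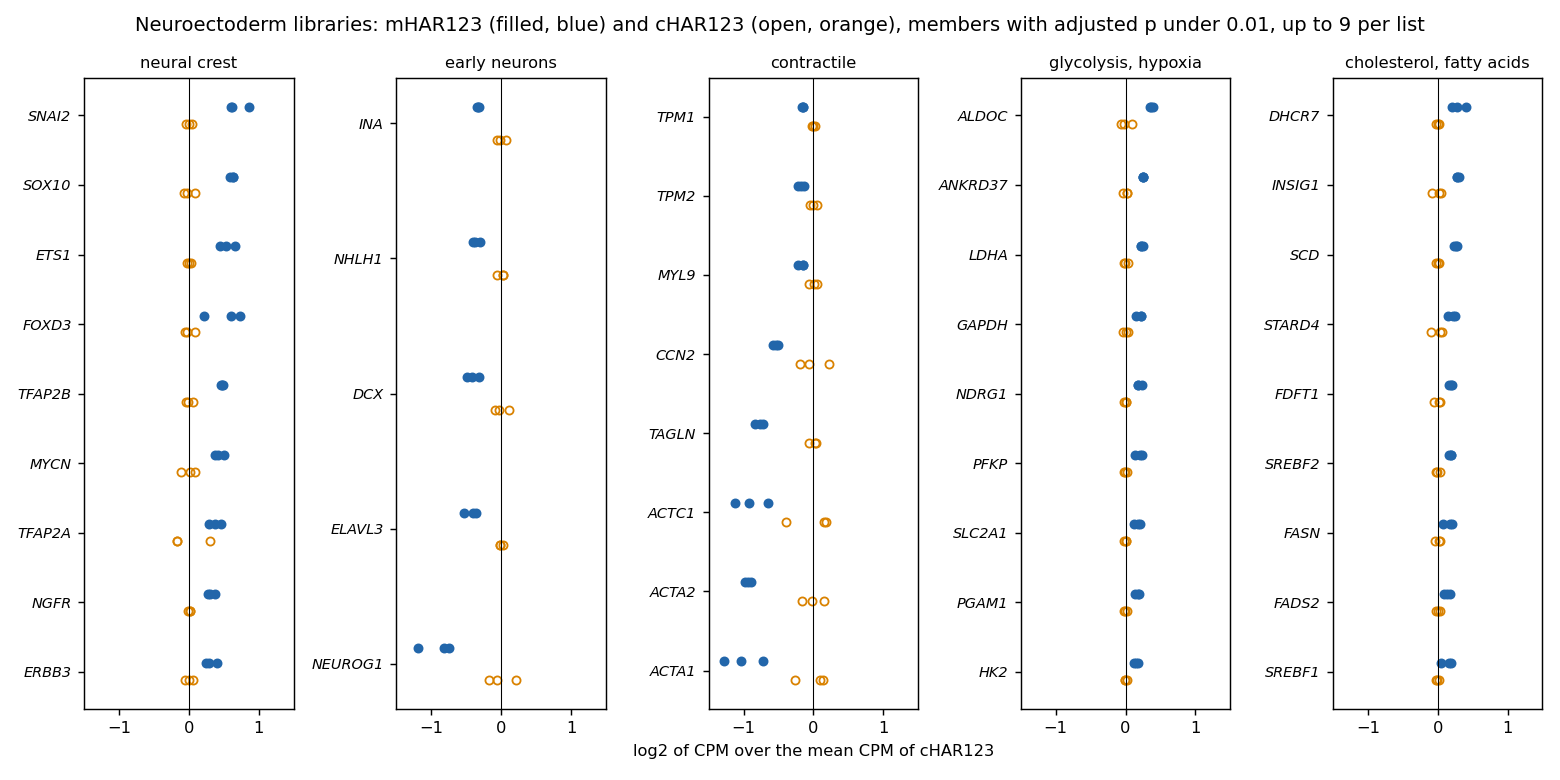
Log2 of the CPM of each neuroectoderm library over the mean CPM of cHAR123, for up to 9 members that passed an adjusted p of 0.01 in each of 5 lists. Filled blue circles are mHAR123 libraries and open orange circles are cHAR123 libraries. Neural crest genes lie to the right by 0.34 to 0.72 and contractile genes to the left by up to 0.97. Metabolic genes lie to the right, ALDOC within the range of the crest genes and the others by smaller amounts with narrow spread.

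Signalling genes moved in both directions. In the WNT list 7 of 48 rose and 7 fell. WNT4, a ligand of the dorsal neural tube and a DEG, measured 4.27, 4.35 and 5.54 CPM against 10.1, 8.79 and 10.3 CPM (log2 fold change -1.02 ± 0.11, adjusted p = 1.5e-09), and its exons overlap an antisense gene. The log2 fold change of WNT4 ranged from -1.15 to -0.95 in the fits without single libraries, so not every such fit called it. Ligands and targets of the list were among those that fell, WNT2B (-0.87 ± 0.073), WNT1, the R-spondin receptor LGR5 (-0.80 ± 0.15) and the feedback inhibitors AXIN2 (-0.22 ± 0.035) and ZNRF3 (-0.20 ± 0.042). Receptors stood on both sides, with FZD8 (0.49 ± 0.12), FZD7 (0.33 ± 0.027), FZD5 and LRP5 (0.23 ± 0.044) up and FZD10 (-0.54 ± 0.083) down, beside the secreted inhibitor FRZB (0.38 ± 0.06), which rose. In the FGF list 3 of 25 rose and 4 fell. FGF18, a DEG with 7, 7 and 6 counts against 19, 21 and 16, had a log2 fold change of -1.49 ± 0.38 and missed the threshold without any one library (adjusted p from 0.019 to 0.056). The receptor genes FGFR3 (-0.50 ± 0.063) and FGFR2 (-0.20 ± 0.024) fell, and the feedback inhibitors SPRY1 (0.31 ± 0.057) and SPRY2 (0.34 ± 0.072) rose. EGR1 fell as well, with log2 fold changes from -0.31 to -0.23 in the fits without single libraries. The number up was 1 without mHAR123 replicate 2 and 5 without mHAR123 replicate 1.

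In the BMP and TGF-β list, 1 of 32 rose and 4 fell. The direct BMP targets ID1 (-0.30 ± 0.071), ID2 (-0.23 ± 0.056) and ID3 (-0.20 ± 0.039) fell with GDF7. ID1 measured 14.3, 14.3 and 13.9 CPM against 17.6, 16.9 and 18.8 CPM. The number that fell was 2 without cHAR123 replicate 3, or without mHAR123 replicate 2 or 3. BMP4 measured 2.16, 2.90 and 3.42 CPM against 2.28, 2.70 and 2.69 CPM, a log2 fold change of 0.16 ± 0.17 (adjusted p = 0.70). In the Notch list 3 of 19 rose, NOTCH1 (0.20 ± 0.027), NOTCH2 (0.11 ± 0.025) and HEYL (0.20 ± 0.05), and the number was 1 without cHAR123 replicate 2 or mHAR123 replicate 2. In the Hedgehog and retinoic acid list 3 of 24 rose, led by the receptor RARG (0.41 ± 0.067) and the binding protein CRABP2 (0.22 ± 0.035). Axon guidance genes split into 8 up and 5 down of 46. EFNB1, an X-linked ephrin, measured 107, 108 and 115 CPM against 189.5, 180.3 and 188 CPM (log2 fold change -0.73 ± 0.032, adjusted p = 2.7e-23), with 102 ± 2.15 CPM in hHAR123, so that cHAR123 was the higher genotype. The number up was 4 without cHAR123 replicate 1 or mHAR123 replicate 2, and the number down 2 without cHAR123 replicate 2 or 3 or mHAR123 replicate 2.

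Of 27 glycolysis and hypoxia genes, 18 rose and none fell (24 and 0 at an unadjusted p of 0.05, and 15 and 0 with DESeq2), with a median log2 fold change of 0.16, and the list summed to between 9929 and 10123 CPM in mHAR123 and between 9060.3 and 9182 CPM in cHAR123. The number was 12 without cHAR123 replicate 2 and 21 without mHAR123 replicate 1, the extremes when single libraries were left out. LDHA, which makes lactate, measured 369, 365 and 361 CPM against 310.3, 318 and 306 CPM (log2 fold change 0.25 ± 0.024, adjusted p = 4.7e-11). GAPDH (0.22 ± 0.02), ALDOC (0.40 ± 0.066), ANKRD37 (0.28 ± 0.055), a hypoxia target, and the glucose transporter gene SLC2A1 (0.19 ± 0.023) also rose. The EGLN3 gene, a prolyl hydroxylase induced by hypoxia, had -0.055 ± 0.042 (adjusted p = 0.53). The LDHA promoter, of the first of 2 starts listed (chr11:18394313-18394612, plus strand), holds 5 copies of ACGTG. This core was found in 20 of 47 promoters of the 25 list genes with an entry (42.6%), against 21.4% of all promoters. The share was as high in lists without up-regulated members, 46.2% for nonsense-mediated decay and 42.9% for border and roof plate genes.
LDHA: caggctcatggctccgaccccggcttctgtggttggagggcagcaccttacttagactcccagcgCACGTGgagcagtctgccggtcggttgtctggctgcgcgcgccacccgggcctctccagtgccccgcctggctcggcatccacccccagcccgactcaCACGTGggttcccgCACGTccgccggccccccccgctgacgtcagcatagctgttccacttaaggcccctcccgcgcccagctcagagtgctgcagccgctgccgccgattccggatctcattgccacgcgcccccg

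Of 27 genes of cholesterol and fatty acid synthesis, 13 rose and none fell (18 and 0 at an unadjusted p of 0.05, and 13 and 0 with DESeq2), with a median of 0.14 and between 11 and 14 when single libraries were left out. DHCR7, the last enzyme of cholesterol synthesis, measured 39.0, 44.9 and 41.1 CPM against 34.3, 33.4 and 33.9 CPM (log2 fold change 0.32 ± 0.052, adjusted p = 1.1e-05). INSIG1, which retains the sterol-sensing complex in the endoplasmic reticulum, measured 43.3, 42.4 and 42.7 CPM against 33.4, 36.4 and 35.7 CPM (log2 fold change 0.31 ± 0.049, adjusted p = 8.7e-06). The groups did not overlap in either gene. SCD (0.28 ± 0.021) and SREBF2 (0.21 ± 0.025), the master regulator of the pathway, rose too. A CCAAT box was found in 20 of 28 promoters of the 20 list genes with an entry (71.4%), against 34.6% of all promoters and 72.4% of those of the cell cycle list.

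Contractile and actin genes fell, 8 of 17 with none up-regulated (9 and 0 at an unadjusted p of 0.05, and 6 and 0 with DESeq2). ACTA2, smooth muscle actin, measured 6.70, 6.91 and 6.53 CPM against 11.5, 14.4 and 12.7 CPM (log2 fold change -0.91 ± 0.094, adjusted p = 3.8e-10). ACTA1 (-0.97 ± 0.16), ACTC1 (-0.87 ± 0.16), TAGLN (-0.75 ± 0.066) and CCN2 (-0.52 ± 0.072), a target of YAP and TGF-β, fell with it. For ACTA2 and TAGLN, cHAR123 was close to the hHAR123 means of 13.01 ± 0.678 and 25.3 ± 2.19 CPM, and mHAR123 was lower. Without mHAR123 replicate 2 the number was 5. Cell cycle genes rose in 7 of 28 cases, among them PLK1 (0.26 ± 0.036), AURKA (0.21 ± 0.046) and MKI67 (0.14 ± 0.023). Of 50 extracellular matrix genes, 11 rose and 3 fell. COL1A2, a chain of type I collagen, measured 162, 165 and 167 CPM against 122, 116 and 120.5 CPM (log2 fold change 0.49 ± 0.031, adjusted p = 3.4e-17), and the protease gene ADAMTS18 had -0.68 ± 0.14. Of 11 pluripotency genes, 4 rose, L1TD1 (0.56 ± 0.08), ZFP42 (0.40 ± 0.10), DNMT3B (0.18 ± 0.027) and SALL4 (0.10 ± 0.022), and the number was 2 without cHAR123 replicate 1. POU5F1 had 0.042 ± 0.083 (adjusted p = 0.85).

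Genes around HAR123 did not pass the test, 0 of 28 within the surrounding region of chromosome 17 that were tested, with a median log2 fold change of 0.016. At an unadjusted p of 0.05, 5 of the 28 were higher and 1 lower, and DESeq2 also called 0. SMG6, the host gene (chr17:2059839-2303785), measured 148, 148 and 150.0 CPM in mHAR123 and 157, 146 and 153 CPM in cHAR123, a log2 fold change of -0.012 ± 0.031 (adjusted p = 0.89). HIC1, a transcriptional repressor gene whose exons overlap the end of SMG6 on the opposite strand (chr17:2054154-2063241), measured 0.462, 0.455 and 0.692 CPM against 0.400, 0.761 and 0.359 CPM, a log2 fold change of 0.10 ± 0.38 (adjusted p = 0.94). At these counts, 39 against 36 over 3 libraries each, the exact 95% counting interval of the mHAR123 to cHAR123 ratio ran from 0.650 to 1.70, so a smaller difference was not detectable. Both genotypes were below hHAR123, which averaged 1.43 ± 0.447 CPM, with log2 fold changes of -1.36 ± 0.31 for mHAR123 (adjusted p = 9.3e-04) and -1.46 ± 0.31 for cHAR123 (adjusted p = 7.1e-04). None of the 19 nonsense-mediated decay genes passed (1 higher and 6 lower at an unadjusted p of 0.05), nor did any of the 19 apoptosis and p53 target genes (3 higher and 1 lower), and DESeq2 also called 0 in both lists.

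The same contrast in undifferentiated cells gave 33 DEGs of 20950 genes tested (0.158%), and 14 of them were also DEGs in neuroectoderm. Of the 55 neuroectoderm DEGs 32 were tested in ESCs, and 28 had the same sign there (87.5%, against 50.2% of all genes tested in both). LINC01515 (5.29 ± 0.14), LINC01090 (6.15 ± 0.24), TCEAL5 (5.29 ± 0.19) and ALG10B (-1.80 ± 0.13) had ESC log2 fold changes close to those in neuroectoderm, and BTF3 had -0.94 ± 0.03. Among the lists with most up-regulated members, none of the 10 neural crest genes, 27 glycolysis genes or 27 cholesterol and fatty acid genes tested in ESCs passed there, where 0.783% of all genes did. At an unadjusted p of 0.05 these numbers were 3, 3 and 4, against 9.26% of all genes. The test of the difference between the stages passed for 4 crest genes, 7 glycolysis genes and 6 cholesterol and fatty acid genes, against 0.893% of all genes. For FOXD3 that difference was 0.67 ± 0.10 (adjusted p = 1.7e-05), with ESC means of 33.2 ± 0.275 CPM in mHAR123 and 35.8 ± 0.190 CPM in cHAR123. Over all genes 18 of 23410 (0.0769%) differed between the stages by more than 1 on the log2 scale, 6 of them DEGs in neuroectoderm. WNT4 had an ESC log2 fold change of 0.18 ± 0.20 and an interaction of -1.20 ± 0.23 (adjusted p = 9.3e-04).

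**Figure D5:**
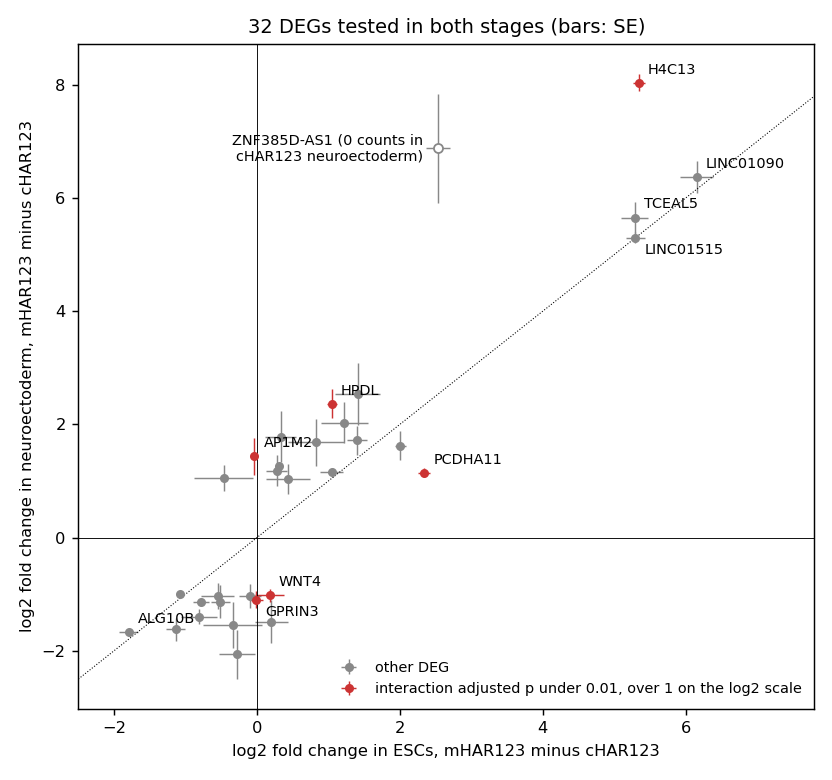
Log2 fold change of mHAR123 minus cHAR123 in neuroectoderm against that in ESCs, for the 32 DEGs tested in both stages. Bars give the errors of log2 fold changes as defined in the text. The dotted line marks equal values. LINC01090, TCEAL5 and LINC01515 lie close to it, and the red points, among them H4C13 and WNT4, differed between stages. The open point had no counts in cHAR123 neuroectoderm, so its height is no bound.

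Set beside knockout against hHAR123 in neuroectoderm, which uses other libraries, 24 of the 48 DEGs tested in both had the same sign and 24 the opposite one. Among the 879 genes that passed at any fold, 534 (60.8%) had the same sign, against 54.8% of all 20654 genes tested in both. Set beside the change of hHAR123 cells from ESC to neuroectoderm, 315 of 875 such genes (36%) had the same sign, against 44.4% of all genes tested in both. Of the 320 down-regulated among them, 90 also fell during differentiation, and of the 555 up-regulated 225 also rose. Among those with the opposite sign, PAX6 and DCX rose during differentiation, by 10.96 ± 0.077 and 1.27 ± 0.062, and were lower in mHAR123 than in cHAR123. L1TD1 fell (-6.85 ± 0.046) and was higher in mHAR123. Among those with the same sign, SOX2 and SNAI2 rose during differentiation, by 1.10 ± 0.030 and 2.69 ± 0.30, and were higher in mHAR123.

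Genes that passed were spread over the chromosomes. Median log2 fold changes of the autosomes and the X chromosome lay between -0.027 and 0.025. The X chromosome held 7 DEGs of 755 genes tested (0.927%) and chromosome 1 held 15 of 2099 (0.715%), 9 of them in the olfactory receptor block. Chromosome 17, the site of the edit, held 1 DEG of 1274 and 38 genes that passed at any fold (2.98%).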

How the data were processed

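Total RNA of 3 libraries per genotype and stage was depleted of ribosomal RNA, made into directional libraries and sequenced in paired-end mode. Per the submitters' processing notes and the study's methods, the authors aligned reads to GRCh38 with STAR 2.5.2b and deposited raw exon counts per Ensembl gene from featureCounts in 1 table. Its 61551 genes and all 24 count columns were used, except 1 gene (ANK2) on 3 broken lines. The strand setting is not given in the sources used here. Genes are named by the symbol that a reference of gene names gives for the Ensembl ID, or by the ID where no unique symbol was found.

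Genes with low counts were removed by filterByExpr, libraries were scaled by TMM, and edgeR 4.0.16 quasi-likelihood tests in R 4.3.3 compared mHAR123 with cHAR123 (positive: higher in mHAR123), at an adjusted p of 0.01 and an absolute log2 fold change of 1. The same fit was made for ESCs, for the interaction of genotype and stage, and for knockout against hHAR123. DESeq2 1.42.0, its size factors, no filter, a replicate block, all libraries of a stage and each library left out were alternatives. Scripts were tested on simulated data. CPM of genes are scaled by library totals, without TMM factors. Named genes were DEGs of at least 1 CPM (up to 12 per direction), DEGs in lists, interaction genes and fixed genes of interest. Other genes named were chosen after their values were seen. The members and gene lists were chosen with earlier results of these data known. Chi-square per degree of freedom between replicates of the 6 libraries was between 1.54 and 3.41, so no library was a copy of another. Such values cannot tell separate cultures from repeat libraries of the same RNA. Some genes that the rule names are not reported here.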

Additional observations from a re-analysis of the deposited data

Results flagged for a closer look

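The difference between mHAR123 and cHAR123 was tested against the same difference in ESCs, and the genes given here passed an adjusted p of 0.01 with more than 1 on the log2 scale (edgeR's quasi-likelihood interaction test). Values are neuroectoderm minus ESC. For H4C13 the interaction was 2.69 ± 0.36 (adjusted p = 1.9e-06), since cHAR123 libraries held 1.74 ± 0.425 CPM in ESCs and 0.144 ± 0.0735 CPM in neuroectoderm. HPDL had 1.32 ± 0.27 (adjusted p = 0.0021) and was up-regulated in mHAR123 in both stages. AP1M2, a clathrin adaptor subunit of epithelial cells, had 1.48 ± 0.28 (adjusted p = 9.1e-04). It stood at 68.8 ± 1.02 and 70.03 ± 1.63 CPM in mHAR123 and cHAR123 ESCs and at 1.18 ± 0.212 and 0.443 ± 0.180 CPM in neuroectoderm. The neuroectoderm difference of AP1M2 rested on 86 against 31 counts, and its adjusted p there (edgeR) reached 0.050 when single libraries were left out. PCDHA11 had -1.20 ± 0.12 (adjusted p = 1.0e-09), with the larger difference in ESCs. WNT4 had -1.20 ± 0.23 and GPRIN3 -1.09 ± 0.18 (adjusted p = 9.3e-04 and 5.8e-05), and neither passed the test in ESCs. ACTA1 had -1.09 ± 0.17 (adjusted p = 2.7e-05), and ACTA2, which was at 0.533 ± 0.196 and 0.207 ± 0.133 CPM in mHAR123 and cHAR123 ESCs, had -2.18 ± 0.41 (adjusted p = 7.9e-04).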

How the results depend on the processing

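The number of DEGs between mHAR123 and cHAR123 in neuroectoderm, 55, was 15 with DESeq2, whose filter left 40 of them without an adjusted p, and 886 with no minimum fold change. With DESeq2 size factors it was 55, with no filter 72, with all 12 libraries of the stage 52, and without single libraries between 42 and 50, of which 39 to 43 were among the 55. The ESC number, 33, was 164 with no minimum fold change and between 27 and 34 without single libraries. The interaction number, 18, was 50 at an adjusted p of 0.05, 209 with no minimum fold change and between 14 and 22 without single libraries. No named gene that passed the test changed sign among the alternatives run. Between 12 and 16 of the 55 DEGs were not called when 1 library was left out. List medians moved by less than their SD over the fits without single libraries under DESeq2, its size factors and no filter. Counts of list members under the alternatives were added after the data had been seen. Deviations of same-numbered replicates correlated weakly in neuroectoderm (-0.0065, 0.027 and 0.042) and in ESCs (-0.026, -0.003 and -0.0018). Differently numbered replicates in neuroectoderm had correlations from -0.042 to 0.016. With 3 libraries per group, such values cannot exclude that the numbers pair the libraries. A replicate block gave 47 DEGs, 44 of them among the 55. Differences in genes below 1 CPM rest on few counts.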

Other observations

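Several gene groups not described above differed between mHAR123 and cHAR123 neuroectoderm at the adjusted p of 0.01 (edgeR). Of 24 imprinted genes tested, 3 rose, DLK1 (0.44 ± 0.036), IGF2 (0.32 ± 0.071) and PEG10 (0.19 ± 0.023), and ZDBF2 had -0.15 ± 0.033. Of 13 surface ectoderm and placode genes, the epidermal regulator GRHL3 (0.58 ± 0.10) and the keratins KRT19 (0.21 ± 0.036) and KRT18 (0.18 ± 0.043) rose. Of 15 heat shock and metallothionein genes, 4 chaperone genes fell, HSPH1 (-0.18 ± 0.039), HSPA1B (-0.14 ± 0.032), HSPA8 (-0.10 ± 0.022) and HSP90AA1 (-0.10 ± 0.025), and the number was 1 without cHAR123 replicate 3 or mHAR123 replicate 2. Of 21 ATF4 stress response genes, 3 rose and ATF3 had -0.25 ± 0.059, and the number up was 1 without cHAR123 replicate 2. The mesoderm list had 1 of 5 members up, the VEGF receptor gene KDR (0.46 ± 0.082). None of the 2 endoderm and 2 blood and endothelium genes tested passed (0 and 1 at an unadjusted p of 0.05, with DESeq2 also calling 0).

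Clustered protocadherins differed member by member. Of 14 PCDHA genes tested, PCDHA11 and PCDHAC1 rose and PCDHA10 fell, with mean levels of 34.2 CPM in mHAR123 and 44.4 CPM in cHAR123 for PCDHA10. In the list of 50 cadherins and protocadherins 6 rose and 5 fell, from PCDHB16 (-0.64 ± 0.089) to PCDH10 (0.41 ± 0.087). The number up was 2 without mHAR123 replicate 2.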
